A study of Homo sapiens with 18 samples.

Results

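FOXA1 was knocked down in LNCaP cells that also carried an shRNA against HIF1A, and the 3 libraries of doubly infected cells (shFOXA1 with shHIF1A) were compared with the 3 libraries of cells infected with shHIF1A alone. These are 6 of the 18 RNA-sequencing libraries of the study, and the genes described are the 12900 of 26443 with at least 1 RPKM (reads per kilobase of transcript, scaled to library size) in at least 3 of the 18. LNCaP is an established human prostate cancer line that is luminal in character and depends on the androgen receptor. All cultures, controls included, were harvested 5 days after lentiviral infection and had spent the last 24 h in 100 µM CoCl2, a salt that blocks HIF1A breakdown and so imitates low oxygen. The other libraries came from cells with the control vector pGIPZ, cells with shFOXA1 alone, and the same pair of infections with 40 µM KC7F2, a HIF1A inhibitor. The labels record the line's genotype as wild type and describe triplicates without saying that they are separate cultures, so the p-values reflect only the spread of these libraries, which may be technical. Neither the backbone of the HIF1A hairpin vector nor whether singly infected cells were given a control virus as their second infection is stated in the sources used here.

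FOXA1 is a forkhead factor that opens chromatin, and in prostate luminal cells it guides the androgen receptor to its enhancers and keeps luminal genes on. HIF1A is the oxygen-sensitive subunit of a dimeric factor that, when stabilised, turns on glycolysis, angiogenesis and oxygen-sensing genes. The title of the study states that FOXA1 represses HIF1A, so the doubly infected cells ask which changes after FOXA1 loss remain when HIF1A can no longer be raised.

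Levels are given in RPKM for replicates 1, 2 and 3 in that order. A change is a difference of group means of log2(RPKM + 0.5) with its SE, doubly infected minus shHIF1A unless stated, and this scale understates the change of a gene with few reads. Each adjusted p is a Benjamini-Hochberg value over 12900 genes from limma, and the words rose and fell are kept for genes under the threshold of 0.05. Over all genes tested, the 3 and 3 libraries did not overlap in 11.8% with the doubly infected group higher and in 20% with it lower, which is the background for each statement on overlap. Of all genes, 5.27% rose and 9.25% fell, against 9.52% and 14.6% after shFOXA1 with HIF1A present. The test of the difference between these 2 changes called 3.16% higher and 4.45% lower. Those shares are the background for each count of list members. Recovered library depth (in units of 1e6 reads) was 8.89 to 12.04 in shHIF1A and 3.26, 6.48 and 8.43 in the doubly infected group, so low genes rest on fewer reads in the latter, above all in its replicate 1. The summed level of 11 luminal prostate markers was 1109 to 1310 RPKM in shHIF1A and 876 to 1004 in doubly infected cells. None of these 11 was at 0, while the basal markers KRT5 and TP63, the neuroendocrine markers CHGB and INSM1 and the T cell marker CD3E were at 0 in all 6 libraries. The basal marker KRT14 was 0.55 to 0.812 in shHIF1A and 3.4 to 6.38 in doubly infected cells, and the leukocyte marker CD68 3.575 to 5.19 and 9.56 to 11.2. The fibroblast marker COL1A1 was 6 to 7.28 and 3.73 to 4.56, and the endothelial marker VWF 2.1 to 2.725 and 0.7925 to 0.926. All other markers fixed for these non-luminal types were under 1 RPKM in all 6 libraries.

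The FOXA1 hairpin lowered its target in HIF1A-depleted cells. FOXA1 (chromosome 14, 37589984 to 37596059, hg38) stood at 123, 118 and 119 in shHIF1A and at 70.7, 63.5 and 59.3 in doubly infected cells, with no overlap. The change was -0.89 ± 0.16 (adjusted p = 0.00109), which left 53.8% of the level, against 36% left by shFOXA1 alone relative to control (change -1.47 ± 0.16, adjusted p = 3.44e-06). The difference between these 2 changes, 0.58 ± 0.22, had an adjusted p of 0.142. HIF1A (chromosome 14, 61695513 to 61748259) was 3.06, 4.28 and 3.33 in shHIF1A and 4.33, 4.07 and 4.56 in doubly infected cells, and the groups overlapped (change 0.26 ± 0.23, adjusted p = 0.526). Both lay far under the 23.1 ± 7.91 of control and the 89.9 ± 9 of shFOXA1 alone (mean ± SD, n = 3). HIF1A mRNA was thus held low on both sides of the comparison.

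A microRNA gene that neither hairpin targets also separated the groups. MIR30A (chromosome 6, 71403551 to 71403621), whose hairpin backbone pGIPZ-type vectors borrow to carry their shRNAs, was 39.8, 18.5 and 25.3 in shHIF1A and 5300.5, 4051 and 4836 in doubly infected cells (change 7.44 ± 0.22, adjusted p = 3.45e-12). In control cells, which carry pGIPZ with no FOXA1 hairpin, it was 6641 ± 803, and in shFOXA1 cells 8225 ± 1063. The 3 shHIF1A libraries were therefore the low ones, and the doubly infected libraries lay near the pGIPZ control in this signal. Whether these reads come from vector transcripts was not tested. A second vector, or a vector of another kind, cannot be told apart from loss of FOXA1 in any change described here. Of the 546 small RNA genes tested, 9 rose and 9 fell, MIR30A among the 9 that rose.

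**Figure D1:**
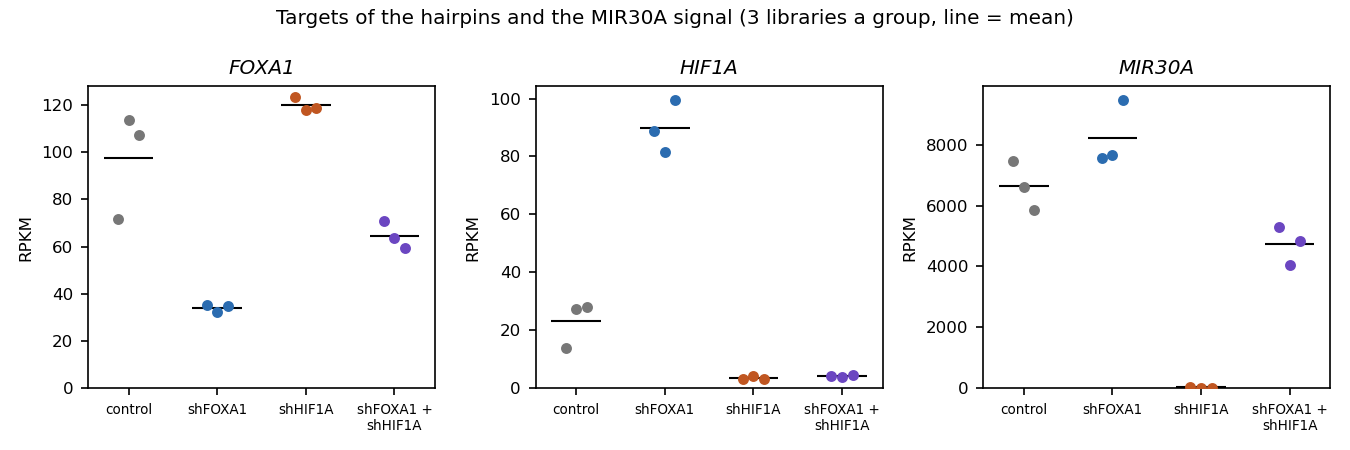
RPKM (linear axes from 0) of FOXA1, HIF1A and MIR30A in the 4 groups without KC7F2, with 1 point per library and a line at the mean of 3. FOXA1 lies at 59.3 to 70.7 in doubly infected cells and at 118 to 123 in shHIF1A, HIF1A stays under 5 in both, and MIR30A is low only in shHIF1A among these 4 groups.

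In all, 1873 of 12900 genes (14.5%) differed between the groups: 680 rose (5.27%) and 1193 fell (9.25%), of which 167 and 154 by at least 2-fold. The median change over all genes was -0.06, and 36.3% of the called genes were higher. With quantile normalisation 46.8% of 1921 called genes were higher, so the balance of rises and falls depends on the scaling. Without shHIF1A replicate 2 the count was 1201, and without shHIF1A replicate 1 it was 1252. The largest changes below held with each library left out.

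PTN, the secreted growth factor pleiotrophin, headed the 12 largest rises outside small RNA genes. PTN (chromosome 7, 137227341 to 137343865) was 1.51, 1.98 and 1.89 in shHIF1A and 50.9, 47.9 and 48.8 in doubly infected cells, a change of 4.44 ± 0.25 (adjusted p = 8.96e-09). It was 0.145 ± 0.203 in control and 0.518 ± 0.322 in shFOXA1, so the high level was seen only in doubly infected cells among the 4 groups without KC7F2. TMEM158, a RAS-induced membrane protein, went from 2.9, 1.74 and 2.18 to 35.8, 38.8 and 36.8 (change 3.78 ± 0.20, adjusted p = 4.5e-09), and TMPRSS11E, a transmembrane serine protease, from 1.09, 1.15 and 1.55 to 13.7, 12.1 and 11.6 (change 2.88 ± 0.18, adjusted p = 4.04e-08). DUOXA1, the maturation factor of the hydrogen peroxide producing enzyme DUOX1, was 0.227, 0.186 and 0.0342 in shHIF1A and 3.27, 3.05 and 2.99 in doubly infected cells (change 2.48 ± 0.21, adjusted p = 8.12e-07). For PTN, TMEM158, TMPRSS11E and DUOXA1 the change was larger than with HIF1A present, by 3.79 ± 0.35, 2.41 ± 0.28, 2.24 ± 0.26 and 2.04 ± 0.30 (adjusted p of the difference 5.08e-06, 5e-05, 3.58e-05 and 0.000337). The groups did not overlap for these 4 genes, as the rule that chose the 12 required.

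Keratins, an annexin and a homeobox factor were also among the 12 largest rises. KRT16, a keratin of stressed epithelium, was 0.242, 0.357 and 0.262 in shHIF1A and 9.3, 7.1 and 10.9 in doubly infected cells (change 3.59 ± 0.17, adjusted p = 1.01e-09), with reads that may be shared with near-identical keratin copies. KRT36, a hair keratin, went from 0.404, 0.16 and 0.547 to 8.22, 7.32 and 6.71 (change 3.21 ± 0.20, adjusted p = 4.04e-08). ANXA1, a phospholipid-binding anti-inflammatory protein, was 7.19, 9.69 and 5.78 in shHIF1A and 46.6, 41 and 45.7 in doubly infected cells (change 2.51 ± 0.21, adjusted p = 8.29e-07). BARX2, a homeobox factor, went from 4.42, 4.26 and 2.35 to 33, 22.1 and 26.8 (change 2.76 ± 0.20, adjusted p = 1.3e-07). Here too the rule required that the groups did not overlap. The other 4 of the 12 largest rises were TMEM74B (2.82 ± 0.21), the potassium channel gene KCNC4 (2.63 ± 0.19), MGP, an inhibitor of calcification (2.59 ± 0.23), and NPPC, the natriuretic peptide precursor (2.35 ± 0.31). Of MGP, the shHIF1A libraries read 0.0564, 0 and 0, so its fitted change depends on the constant added and is no measure of the fold.

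The 12 largest falls included androgen receptor targets and pseudogenes. SLC45A3, the luminal prostate protein prostein (chromosome 1, 205657851 to 205680459), was 74.9, 77.5 and 64.3 in shHIF1A and 23.3, 16.8 and 17.8 in doubly infected cells (change -1.89 ± 0.13, adjusted p = 6.96e-08). TARP, an androgen-driven transcript from within the T cell receptor gamma locus whose reads cannot be separated from that locus, fell from 42.9, 47.8 and 40.2 to 9.27, 5.56 and 6.7 (change -2.55 ± 0.21, adjusted p = 7.91e-07). Both genes were below every shHIF1A library in all 3 doubly infected ones. ADAM7, a sperm-surface and epididymal disintegrin family member, went from 4.69, 5.44 and 5.66 to 0.542, 0.682 and 0.838 (change -2.28 ± 0.15, adjusted p = 6.61e-08), and S100P, a calcium-binding protein, from 59.7, 45.5 and 46.7 to 19.3, 11.5 and 14.2 (change -1.74 ± 0.34, adjusted p = 0.00211). TNFRSF19, a member of the tumour necrosis factor receptor family, was 18.7, 22.4 and 21.4 in shHIF1A and 5.84, 6.35 and 5.57 in doubly infected cells (change -1.73 ± 0.13, adjusted p = 3.02e-07). Its level in control was 5.46 ± 0.631, close to that of the doubly infected cells. The interferon-stimulated gene IFI6 is described with its group. The remaining large falls were in the pseudogenes FAR2P1 (-2.17 ± 0.16), FAR2P2 (-2.16 ± 0.21) and CYP4F30P (-1.81 ± 0.27) and in LOC440910 (-1.73 ± 0.27), the sperm fibre sheath gene ROPN1L (-2.04 ± 0.30) and the secreted lectin gene REG4 (-1.83 ± 0.23). FAR2P1, FAR2P2 and CYP4F30P share sequence with their parent genes, so their counts are uncertain.

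**Figure D2:**
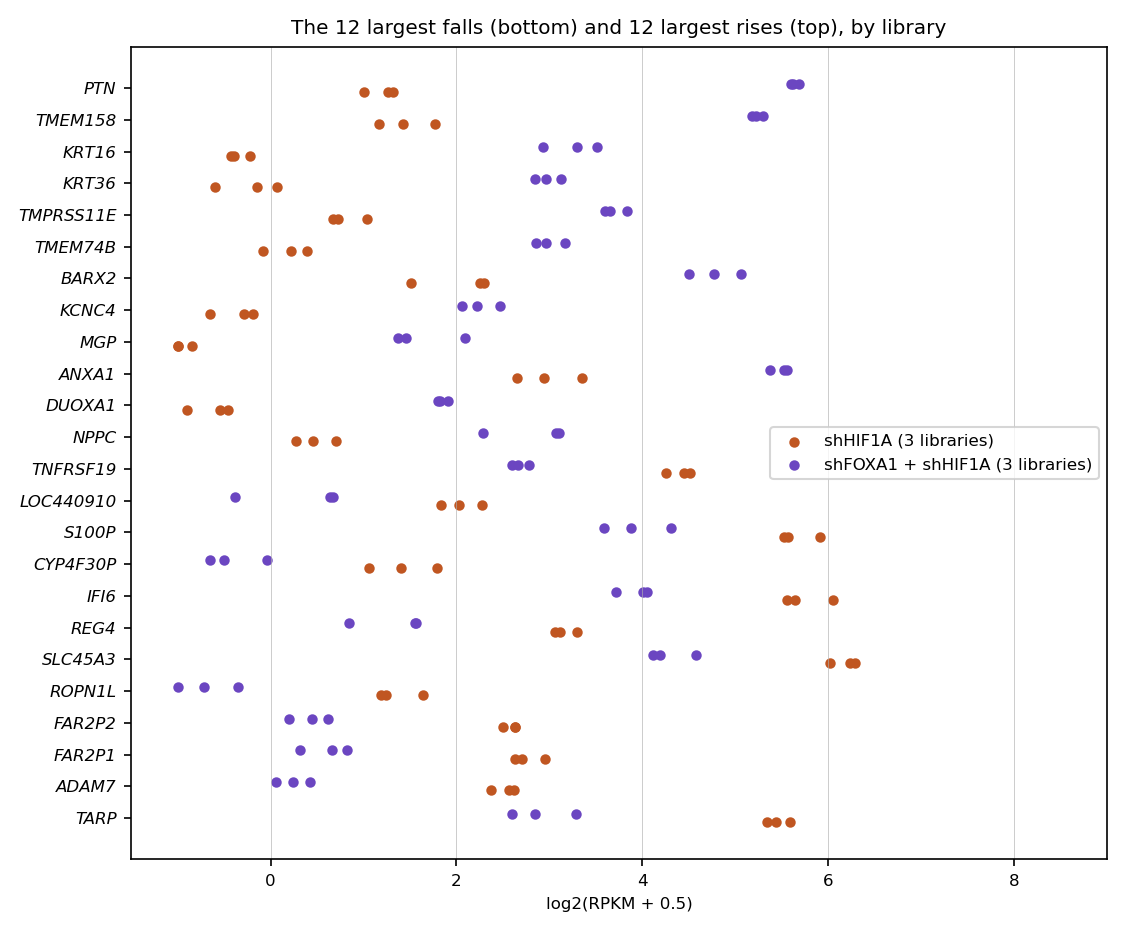
The 12 largest rises and 12 largest falls, 1 point per library on a log2(RPKM + 0.5) axis, with shHIF1A and doubly infected libraries in separate colours. The 3 libraries of 1 group lie apart from the 3 of the other for every gene shown, as the rule that chose them required, and PTN has the largest change at 4.44.

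Of 33 tested androgen receptor targets, 16 fell and 5 rose, beside 9.25% and 5.27% of all genes. Their median change was -0.32 beside -0.06 over all genes, and 13 to 16 fell with each library left out. NCAPD3, a condensin subunit gene induced by androgen in this line, went from 31.9, 37.9 and 37.4 to 10.5, 10.9 and 12.3 (change -1.62 ± 0.12, adjusted p = 1.35e-07). NCAPD3 was lower in every doubly infected library than in any shHIF1A library. KLK3, which encodes prostate-specific antigen, was 421, 371 and 334 in shHIF1A and 331, 268 and 294 in doubly infected cells. The 2 sets of KLK3 values did not overlap, yet the change of -0.33 ± 0.13 had an adjusted p of 0.108, and 0.048 with quantile normalisation. In cells with HIF1A, 20 of the same 33 targets fell and 3 rose after shFOXA1, beside 14.6% and 9.52% of all genes. By the test of the difference, 12 of the 33 had a higher and 6 a lower change in HIF1A-depleted cells. Among the 12 the fall was smaller for SLC45A3 (difference 1.06 ± 0.18, adjusted p = 0.00134) and TARP (difference 1.47 ± 0.30, adjusted p = 0.00641). Among the 6 was NDRG1 (difference -0.55 ± 0.14, adjusted p = 0.0186), which was not called with HIF1A present (-0.14 ± 0.10, adjusted p = 0.328). The summed luminal markers were lower over the same libraries, and their part in these counts was not tested. Of 27 forkhead and androgen receptor partner factors, 2 rose, among them FOXN3 (1.07 ± 0.13), and 5 fell, FOXA1 included. The share called was 25.9%, beside 14.5% of all genes.

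Of the luminal list 25% of tested genes were called and of the basal list 46.2%, beside 14.5% of all genes. Of 20 luminal epithelial genes, 2 rose and 3 fell, with a median of 0.01, and 1 fell without shHIF1A replicate 1 or doubly infected replicate 2. DPP4, a cell-surface peptidase, rose from 3.96, 4.44 and 4.27 to 11.3, 9.58 and 10.8 (change 1.23 ± 0.15, adjusted p = 3.3e-05), whereas with HIF1A present it fell after shFOXA1 (-0.62 ± 0.15, adjusted p = 0.00533). The simple-epithelium keratin KRT19 rose by 0.87 ± 0.22 (adjusted p = 0.0121, and 0.0565 without shHIF1A replicate 2), and the surface antigen PSCA fell (-0.60 ± 0.15, adjusted p = 0.0109, and 0.0508 without shHIF1A replicate 1 and 0.059 without doubly infected replicate 2). Of 13 basal and hemidesmosome genes, 5 rose and 1 fell, the same counts with each library left out, and with a filter of at least 5 RPKM, which left 7 of them, 2 rose. KRT14, the basal keratin, went from 0.812, 0.749 and 0.55 to 6.38, 3.4 and 4.06 (change 2.05 ± 0.22, adjusted p = 1.1e-05). LAMB3, a chain of the basement membrane protein laminin 332, went from 6.45, 6.39 and 4.58 to 13.2, 11.4 and 13.4 (change 1.07 ± 0.13, adjusted p = 2.46e-05). The 5 rises among 13 stand beside 5.27% of all genes that rose. KRT5 and TP63, the defining basal pair, were at 0 in all 6 libraries.

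Mesenchymal genes moved in both directions, 5 of 13 up and 3 down, beside 5.27% and 9.25% of all genes. VIM, the intermediate filament protein of mesenchymal cells, was 7.54, 7.09 and 5.53 in shHIF1A and 26.3, 21.9 and 21.8 in doubly infected cells (change 1.73 ± 0.18, adjusted p = 8.1e-06). In control VIM was 2.33 ± 0.712 and in shFOXA1 1.86 ± 0.129, and the difference between the changes was 1.96 ± 0.26 (adjusted p = 0.00015). THBS1, the matrix glycoprotein thrombospondin, went from 25.9, 31 and 24.6 to 104, 98.2 and 102 (change 1.89 ± 0.14, adjusted p = 1.6e-07), close to its change with HIF1A present (1.73 ± 0.14). TNC, the matrix protein tenascin, rose by 1.35 ± 0.21 (adjusted p = 0.000405) and TAGLN, an actin-binding protein of smooth muscle, by 0.63 ± 0.14 (adjusted p = 0.00608). The 3 members that fell were SNAI1, a repressor of E-cadherin, TGFBI and the collagen gene COL1A1. COL1A1 was 6, 7.28 and 7.25 in shHIF1A and 3.73, 4.56 and 4.18 in doubly infected cells, and COL3A1, another collagen gene of fibroblasts, 1.86, 1.8 and 1.76 and 1.62, 1.18 and 0.843 (change -0.45 ± 0.19, adjusted p = 0.139). These were the 2 of 9 fibroblast genes that passed the filter, and COL1A2, DCN, LUM and PDGFRB were under 1 RPKM in all 6 libraries. Of 11 matrix metalloproteinases, related proteases and inhibitors, 4 fell and 1 rose, ADAMTS1 (0.46 ± 0.10, adjusted p = 0.00464). MMP10, a stromelysin, went from 11.9, 11.9 and 11.3 to 5.41, 2.63 and 3.31 (change -1.56 ± 0.23, adjusted p = 0.000192), and TIMP2, an inhibitor of these proteases, from 38.3, 40.4 and 36.3 to 21.1, 19.9 and 21.4 (change -0.87 ± 0.11, adjusted p = 4.89e-05). In control, MMP10 was 0.637 ± 0.215 and TIMP2 8.12 ± 0.492, both below their levels in either shHIF1A or doubly infected cells.

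Of 26 interferon-stimulated genes tested, 10 fell and none rose, with a median of -0.32, where 9.25% of all genes fell. The number that fell was 8 to 10 with each library left out and 5 to 10 under the other settings, 5 being with the filter of at least 5 RPKM. IFI6, a mitochondrial antiviral protein, was 65.8, 49.4 and 46.7 in shHIF1A and 16.1, 15.6 and 12.7 in doubly infected cells (change -1.82 ± 0.21, adjusted p = 2.41e-05). IFIT1, which binds foreign RNA caps, went from 5.02, 4.68 and 3.83 to 1.69, 0.947 and 1.68 (change -1.39 ± 0.23, adjusted p = 0.000658) and its neighbour IFIT2 from 9.19, 11.3 and 10.4 to 4.83, 4.64 and 3.97 (change -1.11 ± 0.19, adjusted p = 0.000879). The groups did not overlap for these 3 genes, nor, in the lower direction, for 12 of the 26 in all, beside 20% of all genes. Control levels were 11.7 ± 2.42 for IFI6, 0.512 ± 0.234 for IFIT1 and 1.8 ± 0.0274 for IFIT2, and shFOXA1 levels 10.3 ± 1.31, 0.582 ± 0.323 and 1.68 ± 0.215. With HIF1A present, 3 of the 26 rose and 1 fell after shFOXA1, and for 7 of the 26 the change was lower in HIF1A-depleted cells by the test of the difference. CXCL10, a chemokine that interferon induces, fell in step (-1.48 ± 0.29, adjusted p = 0.00229). The number or kind of vectors may also differ between these groups, and its part in the interferon values was not tested.

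The promoters of members of this group carry the interferon-stimulated response element, to which interferon-activated factors bind. The letters GAAANNGAAA were searched on both strands in the 250 bases before the RefSeq start (GRCh38.p14). They were found in 12 of the 20 group members with an entry (60.0%), in 4 of 7 members that fell and had one (57.1%), and in 2.18% of 9254 promoters of tested genes. Below are 3 that fell, printed on the gene's own strand with the matches in capitals, so that the paired copies before each start can be seen. IFI6 is chr1:27672193-27672442 (minus strand), IFIT1 chr10:89392373-89392622 and IFIT3 chr10:89327747-89327996 (both plus strand). IFIT3, picked for display after its values were seen, fell by 1.03 ± 0.24 (adjusted p = 0.00719).
IFI6: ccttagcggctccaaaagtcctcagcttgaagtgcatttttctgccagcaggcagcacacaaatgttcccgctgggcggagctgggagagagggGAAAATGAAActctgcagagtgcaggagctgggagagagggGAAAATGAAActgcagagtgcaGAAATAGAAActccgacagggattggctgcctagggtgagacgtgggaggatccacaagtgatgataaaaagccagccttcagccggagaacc
IFIT1: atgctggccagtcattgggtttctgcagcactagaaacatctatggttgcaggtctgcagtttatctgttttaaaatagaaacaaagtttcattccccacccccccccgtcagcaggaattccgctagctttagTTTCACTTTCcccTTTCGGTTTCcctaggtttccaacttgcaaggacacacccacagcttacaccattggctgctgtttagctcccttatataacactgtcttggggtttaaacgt
IFIT3: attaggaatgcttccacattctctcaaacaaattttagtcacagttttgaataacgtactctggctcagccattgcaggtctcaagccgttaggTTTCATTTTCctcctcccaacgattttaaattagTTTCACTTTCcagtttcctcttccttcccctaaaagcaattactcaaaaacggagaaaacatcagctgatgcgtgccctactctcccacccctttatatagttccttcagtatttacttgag
IFI6 holds 3 matches, and IFIT1 and IFIT3 hold 2 each. The share among all 873 falling genes with a promoter entry was 2.18%, the same as among the tested genes. A match describes the letters only and does not show that a factor binds there.

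Of the hypoxia targets 18.5% were called and of the glycolysis and glycogen enzymes 20%, beside 14.5% of all genes tested. Of 27 tested hypoxia targets, 1 rose and 4 fell (median -0.15), whereas with HIF1A present 16 rose and 2 fell after shFOXA1 (median 0.41). Of 25 glycolysis and glycogen enzymes, none rose and 5 fell (median -0.21), against 15 that rose and 3 that fell with HIF1A present (median 0.43). Of all genes, 9.52% rose and 14.6% fell with HIF1A present, beside 5.27% and 9.25% in HIF1A-depleted cells. The 5 falls shrank to 2 with quantile normalisation, where 2 others rose, and ranged from 0 to 5 with each library left out. By the test of the difference, 13 of the 25 enzymes and 9 of the 27 targets had a lower change in HIF1A-depleted cells, and 1 target a higher one. LDHA, which makes lactate, shows the pattern: it was 63.7, 66.4 and 53.1 in shHIF1A and 65.8, 57.7 and 50.4 in doubly infected cells, overlapping sets (change -0.08 ± 0.11, adjusted p = 0.71). In control LDHA was 195 ± 17.9 and in shFOXA1 351 ± 9.39, a rise of 0.85 ± 0.11 (adjusted p = 2.19e-05), and the difference was -0.93 ± 0.15 (adjusted p = 0.00106).

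PDK1, the kinase that keeps pyruvate out of mitochondria, was 4.08, 3.95 and 4 in shHIF1A and 3.11, 2.68 and 2.3 in doubly infected cells. Its fall of 0.50 ± 0.09 (adjusted p = 0.00176, 0.0581 with only the 2 groups fitted) stands beside a rise of 0.53 ± 0.09 with HIF1A present. HK2, the inducible hexokinase, was 7.01, 9.01 and 6.15 and 5.02, 5.07 and 5.5 in the same order of groups (change -0.45 ± 0.13, adjusted p = 0.0272), a call lost without shHIF1A replicate 2 (adjusted p = 0.154). VEGFA, the endothelial growth factor, was 28.4, 29.1 and 20.8 in shHIF1A and 17.8, 23.6 and 18.4 in doubly infected cells, overlapping sets. Its change of -0.37 ± 0.14 had an adjusted p of 0.0815, 0.0166 without shHIF1A replicate 3 and 0.0344 without doubly infected replicate 2. The oxygen-sensing hydroxylase gene EGLN3 fell from 22.5, 20.1 and 18.9 to 13.5, 11.7 and 10.9 (change -0.75 ± 0.14, adjusted p = 0.00147), and NDRG1, a stress gene that hypoxia and androgen both induce, from 91.8, 92.7 and 77.8 to 57.4, 50.8 and 53.8 (change -0.69 ± 0.10, adjusted p = 0.000123). The single member that rose was ERO1A, an oxidase of the endoplasmic reticulum, at 4.76, 5.78 and 5.75 in shHIF1A and 14, 13 and 11 in doubly infected cells (change 1.15 ± 0.11, adjusted p = 2.1e-06). Its rise with HIF1A present was larger (1.69 ± 0.11; difference -0.54 ± 0.15, adjusted p = 0.0367).

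The HIF dimer recognises the core letters ACGTG. In the same 250-base windows, on both strands, the core was found in 10 of 24 glycolysis enzymes (41.7%), 10 of 22 hypoxia targets (45.5%) and 24.1% of the tested promoters. The LDHA window, chr11:18394313-18394562 on the plus strand of GRCh38.p14, is shown with its 5 matches in capitals, 2 of them overlapping on opposite strands in each CACGTG.
LDHA: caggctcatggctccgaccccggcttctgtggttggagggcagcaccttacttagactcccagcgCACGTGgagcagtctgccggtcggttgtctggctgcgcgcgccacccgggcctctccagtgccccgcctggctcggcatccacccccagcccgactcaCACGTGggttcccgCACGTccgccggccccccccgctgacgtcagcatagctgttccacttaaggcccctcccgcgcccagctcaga
The forkhead letters TGTTTAC were found in 2.90% of 517 promoters of genes that rose, 2.06% of 873 that fell and 1.87% of the tested ones, and in none of these 4 printed windows. Distal enhancers, where FOXA1 is best known to bind, were not searched.

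Most mitosis genes and a minority of DNA replication genes fell. Of 34 tested mitosis and spindle genes, 24 fell and none rose, where 9.25% of all genes fell. Their median was -0.85, and 18 to 23 fell with each library left out. BIRC5, the apoptosis inhibitor and spindle protein survivin, was 4.52, 4.64 and 4.5 in shHIF1A and 1.48, 1.14 and 1.8 in doubly infected cells (change -1.37 ± 0.16, adjusted p = 2.73e-05). HMMR, a spindle assembly factor, went from 1.03, 1.25 and 1.11 to 0.195, 0.147 and 0.264 (change -1.22 ± 0.16, adjusted p = 5.67e-05). The groups did not overlap for either gene, although HMMR is near the bottom of the measured range in the doubly infected libraries. Control levels were 15.7 ± 4.46 and 6.3 ± 0.599. Of 40 DNA replication genes, 12 fell and none rose (median -0.36), and 8 to 12 fell with each library left out and 7 with only the 2 groups fitted. The summed level of the 40 was 247 to 277 RPKM in shHIF1A and 227.2 to 261.2 in doubly infected cells. RRM2, the small subunit of ribonucleotide reductase, went from 3.72, 4.82 and 2.72 to 1.43, 0.854 and 1.28 (change -1.32 ± 0.16, adjusted p = 2.69e-05), and E2F1, the S-phase transcription factor, from 3.26, 2.33 and 3.42 to 1.02, 1.14 and 1.45 (change -1.03 ± 0.15, adjusted p = 0.000204). With HIF1A present 33 of the 34 mitosis genes and 33 of the 40 replication genes fell after shFOXA1, beside 14.6% of all genes. The change was higher, nearer to 0, in HIF1A-depleted cells for 8 mitosis genes and 7 replication genes by the test of the difference, NUSAP1 among them (0.69 ± 0.18, adjusted p = 0.0254). NUSAP1 was 3.07 ± 0.125 in shHIF1A and 14.5 ± 1.57 in control. The constant of 0.5 shrinks a fall more at a low level, which moves such a difference upward. Its part in these counts was not tested. Bulk RNA cannot tell fewer dividing cells from less of these RNAs per cell.

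NRF2 is a stress-activated factor whose targets serve antioxidant defence and glutathione synthesis. Of 23 tested targets, 13 rose and none fell, where 5.27% of all genes rose. Their median was 0.44, and 11 to 13 rose with each library left out. SLC7A11, the cystine importer that feeds glutathione synthesis, was 22.9, 26 and 28.1 in shHIF1A and 52.7, 54.3 and 52.3 in doubly infected cells (change 1.04 ± 0.11, adjusted p = 5.61e-06). With HIF1A present it fell after shFOXA1 (-0.76 ± 0.11, adjusted p = 5.98e-05), and the difference was 1.79 ± 0.15 (adjusted p = 1.64e-06). GCLC, the catalytic subunit of the first enzyme of glutathione synthesis, went from 7.99, 9.87 and 8.02 to 15.8, 15.7 and 15.2 (change 0.82 ± 0.09, adjusted p = 1.96e-05) and rose by 0.72 ± 0.09 with HIF1A present. AKR1B10, an aldo-keto reductase, went from 4.21, 3.35 and 3.1 to 12.7, 7.35 and 8.18 (change 1.26 ± 0.21, adjusted p = 0.000631). FTH1, the ferritin heavy chain, which has many processed copies, went from 377, 288 and 271 to 781, 704 and 647 (change 1.20 ± 0.17, adjusted p = 0.000139). The groups did not overlap for these 4 genes, nor, in the higher direction, for 15 of the 23 in all, beside 11.8% of all genes. With HIF1A present 8 of the 23 rose and 2 fell (median 0.08), and the test of the difference called 2 higher and 1 lower.

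Of 8 secreted defence and acute-phase genes, 3 rose without HIF1A (median 0.46) and all 8 with it (median 3.80), where 5.27% and 9.52% of all genes rose. For all 8 the change was lower in HIF1A-depleted cells by the test of the difference. SAA1, an acute-phase apolipoprotein whose reads may be shared with SAA2, was 4.42, 3.75 and 4.82 in shHIF1A and 15.4, 14.4 and 14.4 in doubly infected cells (change 1.66 ± 0.20, adjusted p = 3.22e-05). Its change with HIF1A present was 4.19 ± 0.20. SLPI, a leukocyte protease inhibitor, went from 27.9, 23.4 and 30.6 to 64.4, 86 and 72.1 (change 1.43 ± 0.25, adjusted p = 0.000864; 3.62 ± 0.25 with HIF1A). PI3, the elastase inhibitor elafin, was 28.9, 25.8 and 30.9 in shHIF1A and 34.9, 34.5 and 42.4 in doubly infected cells (change 0.38 ± 0.21, adjusted p = 0.266). Between control and shFOXA1 it went from 2.55 ± 0.275 to 87.4 ± 13.8, so its level in shHIF1A, where FOXA1 was not targeted, was already above control, and the difference between the changes was -4.46 ± 0.30 (adjusted p = 1.91e-07). S100A9, a subunit of calprotectin, was 1.01, 1.21 and 1.56 in shHIF1A and 9.58, 5.35 and 8.84 in doubly infected cells (change 2.23 ± 0.20, adjusted p = 1.13e-06; 5.12 ± 0.20 with HIF1A). It was the only 1 of 12 S100 genes to rise, and S100P the only 1 to fall. These counts are near the 5.27% and 9.25% of all genes.

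Of 12 chemokines and cytokines, 2 rose and CXCL10 fell, against 8 that rose and 1 that fell with HIF1A present. For this and the other groups below, the shares of all genes were 5.27% and 9.25%, against 9.52% and 14.6% with HIF1A present. CCL2, the monocyte attractant, was 1.56, 1.41 and 1.96 in shHIF1A and 4.11, 3.51 and 4.76 in doubly infected cells (change 1.11 ± 0.28, adjusted p = 0.0119, 0.0534 without shHIF1A replicate 2). With HIF1A present CCL2 went from 1.93 ± 0.946 to 17.3 ± 4.14, and the difference between the changes was -1.82 ± 0.39 (adjusted p = 0.00845). CXCL8, the neutrophil attractant, was 13.6, 12.4 and 13.3 and 24.7, 17.5 and 18.2 in shHIF1A and doubly infected cells (change 0.58 ± 0.23, adjusted p = 0.11). Of 17 NF-kB factors and feedback targets, 4 rose and 1 fell, against 10 that rose with HIF1A. NFKBIZ, a nuclear inhibitor-like co-factor of NF-kB, went from 3.64, 3.82 and 3.89 to 6, 6.8 and 7.38 (change 0.75 ± 0.13, adjusted p = 0.000864; 2.85 ± 0.13 with HIF1A). SOD2, the mitochondrial superoxide dismutase, fell from 52.5, 54.8 and 45.7 to 40.3, 31.5 and 37.6 (change -0.48 ± 0.10, adjusted p = 0.00513, 0.052 with only the 2 groups fitted), while it rose by 1.56 ± 0.10 with HIF1A. The NF-kB counts were 2 to 3 up and 1 to 2 down with each library left out, and 2 up and 0 down with only the 2 groups fitted. Of the leukocyte markers, CD68 rose (1.12 ± 0.14, adjusted p = 5.74e-05) and the other 4 were under 1 RPKM in all 6 libraries. Cornified envelope and stress keratin genes rose in 3 of 10 cases, KRT16, IVL (2.07 ± 0.20) and SPRR2A (1.15 ± 0.23), against 8 of 10 with HIF1A.

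AP-1 and immediate early genes rose in 6 of 17 cases and none fell (median 0.37), where 5.27% of all genes rose. FOSL2, a FOS family subunit of AP-1, was 36.4, 38.8 and 35.4 in shHIF1A and 88, 106 and 102 in doubly infected cells (change 1.40 ± 0.14, adjusted p = 4.26e-06; 2.59 ± 0.14 with HIF1A). KLF4, a zinc finger factor of epithelial differentiation, went from 15.4, 12.6 and 13 to 22, 19.1 and 17.6 (change 0.51 ± 0.11, adjusted p = 0.0039). DUSP4, a nuclear MAP kinase phosphatase, rose from 13.3, 11.5 and 11.7 to 17.2, 18.4 and 16.8 (change 0.51 ± 0.10, adjusted p = 0.00273) but fell with HIF1A present (-0.87 ± 0.10, adjusted p = 8.83e-06). The groups did not overlap for these 3 genes, which are among the group's members with the smallest adjusted p values.

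Enzymes of steroid and drug handling rose in 7 of 20 cases and fell in 3, beside 5.27% and 9.25% of all genes. HSD3B1, which converts steroid precursors toward androgens, was 1.09, 0.886 and 1 in shHIF1A and 4.39, 4.59 and 4.1 in doubly infected cells (change 1.70 ± 0.20, adjusted p = 3.18e-05). HSD17B2, which inactivates testosterone, went from 1.22, 2.26 and 1.41 to 4.5, 4.09 and 4.8 (change 1.25 ± 0.20, adjusted p = 0.000559). SRD5A1, a 5-alpha reductase that acts on testosterone, fell from 23, 23.4 and 23.3 to 12.1, 12.4 and 11.6 (change -0.92 ± 0.10, adjusted p = 6.58e-06). It was 6.82 ± 0.438 in control, lower than in both groups compared. With HIF1A present 5 of the 20 rose and 6 fell, and the test of the difference called 6 higher and 1 lower in HIF1A-depleted cells.

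**Figure D3:**
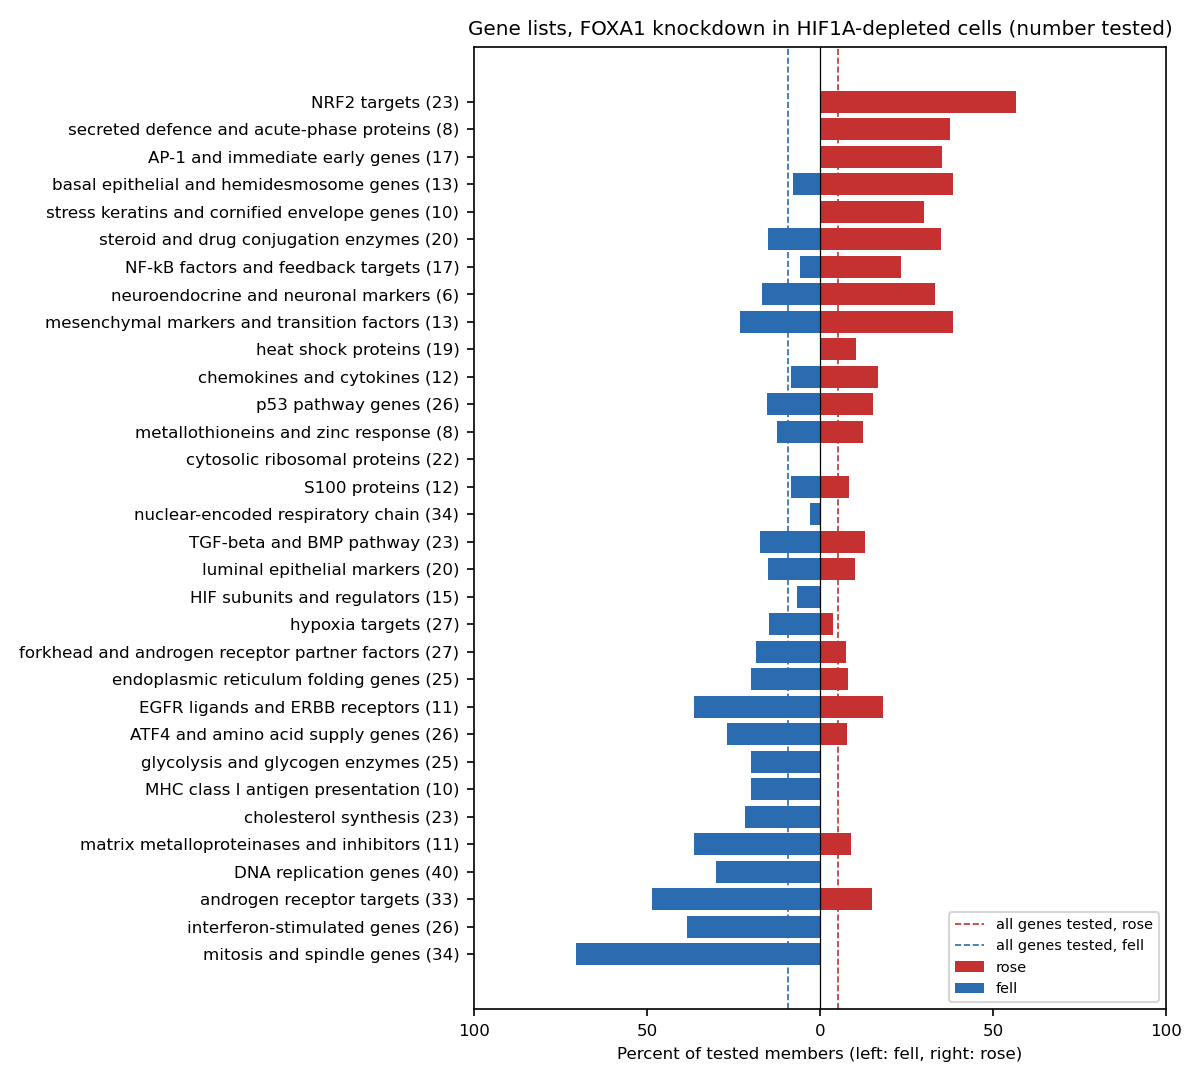
Percent of tested members of each list that rose (right) or fell (left) in doubly infected against shHIF1A cells, for lists with at least 5 tested members, with dashed lines at the share of all 12900 genes that rose (5.27%) or fell (9.25%). Mitosis genes (24 of 34), androgen receptor targets (16 of 33) and interferon-stimulated genes (10 of 26) lean to the left and NRF2 targets (13 of 23) to the right.

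The same knockdown with HIF1A present, shFOXA1 against control, shares no library with the comparison above and called 3111 genes (24.1%), 1228 up (9.52%) and 1883 down (14.6%). Of the 680 genes that rose in HIF1A-depleted cells, 355 also rose there (52.2% of the 680 and 28.9% of the 1228), and 29 fell. Of the 1193 that fell, 576 also fell there (48.3% of the 1193 and 30.6% of the 1883), and 39 rose. Under KC7F2, also with no library in common, where 8.88% of all genes rose and 24.1% fell, 365 of the 680 rose (53.7%, and 31.9% of 1145) and 709 of the 1193 fell (59.4%, and 22.8% of 3105). Across the 12900 genes, the log2 changes with and without HIF1A had a Pearson r of 0.424 and a Spearman rho of 0.366, given as a description because genes are not independent replicates. The share of calls that were higher was 39.5% in shFOXA1 against control and 26.9% under KC7F2, and 51.0% and 50.7% with median-ratio scaling, where the median change of all genes under KC7F2 moved from -0.15 to 0.00. These comparisons differ in depth and in the FOXA1 mRNA that remained.

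Tested directly, the change after FOXA1 knockdown differed between cells with and without the HIF1A hairpin in 982 genes (7.61%), 408 higher (3.16%) and 574 lower (4.45%) in HIF1A-depleted cells. Of the 1228 genes that rose with HIF1A present, 443 had a smaller rise or a fall without it, and of the 1883 that fell, 290 had a smaller fall or a rise. Of the genes that rose or fell in HIF1A-depleted cells, 205 of 680 and 197 of 1193 had a difference, in 131 and 151 of which the change was the stronger one in those cells. Each of these sets was chosen by 1 of the 2 changes that make up the difference. That choice tilts the direction of the difference, so these counts are a description only. ENC1, an actin-binding protein, had 1 of the 2 smallest adjusted p values: it was 12.7, 14.7 and 13.2 in shHIF1A and 45.4, 45.2 and 48 in doubly infected cells, and 6.23 ± 0.39 in control and 140.2 ± 4.78 in shFOXA1. Its change was 1.74 ± 0.08 without HIF1A and 4.39 ± 0.08 with it (difference -2.65 ± 0.12, adjusted p = 7.85e-10). WNT11, a secreted WNT ligand, was at 11.4 ± 1.74 in shFOXA1 and at most 0.320 in each of the 6 libraries of HIF1A-depleted cells (difference -4.13 ± 0.24, adjusted p = 4.41e-08). ACPP, prostatic acid phosphatase, was 28.7 ± 0.766 in control, 4.83 ± 0.435 in shFOXA1, and 4.7, 4.42 and 5.18 and 4.26, 3.44 and 4.38 in shHIF1A and doubly infected cells. ACPP was thus about as low in shHIF1A, with FOXA1 not targeted, as in shFOXA1 (difference 2.23 ± 0.15, adjusted p = 1.67e-07). CAPN2, a calpain protease, and SERPINA3, an acute-phase protease inhibitor, rose with HIF1A present (1.89 ± 0.09 and 3.98 ± 0.20) and changed by 0.16 ± 0.09 and 0.03 ± 0.20 without it (adjusted p = 0.245 and 0.955). A difference of this kind can come from either pair of groups, and for PI3, ACPP and the interferon genes the shHIF1A level itself was far from control. The same held for others, among them LDHA (mean 61.1 in shHIF1A, 195 in control), PDK1 (4.01 and 11.8), BIRC5 (4.55 and 15.7) and MMP10 (11.7 and 0.637). For VEGFA (26.1 and 27.5) and CCL2 (1.64 and 1.93) the 2 means were close.

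**Figure D4:**
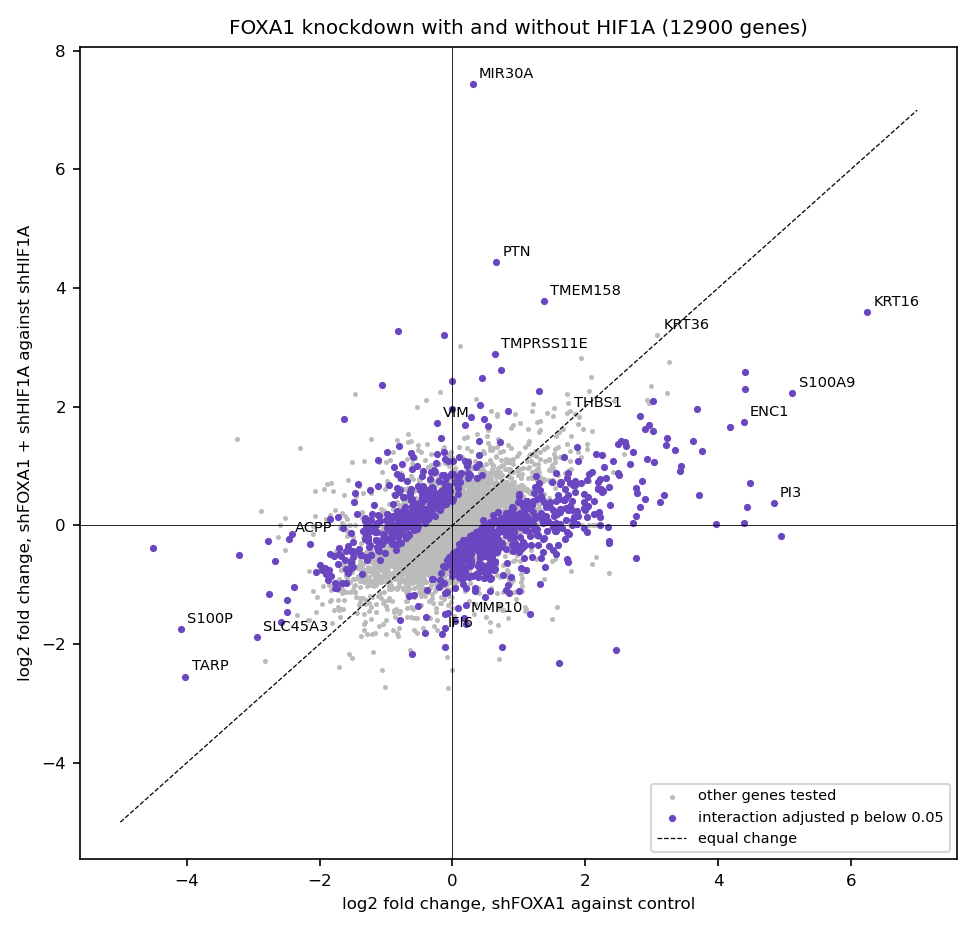
Log2 fold change of 12900 genes after FOXA1 knockdown in cells without the HIF1A hairpin (x axis, shFOXA1 against control) and with it (y axis, doubly infected against shHIF1A), with the 982 genes whose 2 changes differed in purple and a dashed line at equal change. PTN and TMEM158 lie above the line, ENC1 and PI3 far below it, and KRT36 near it.

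**Figure D5:**
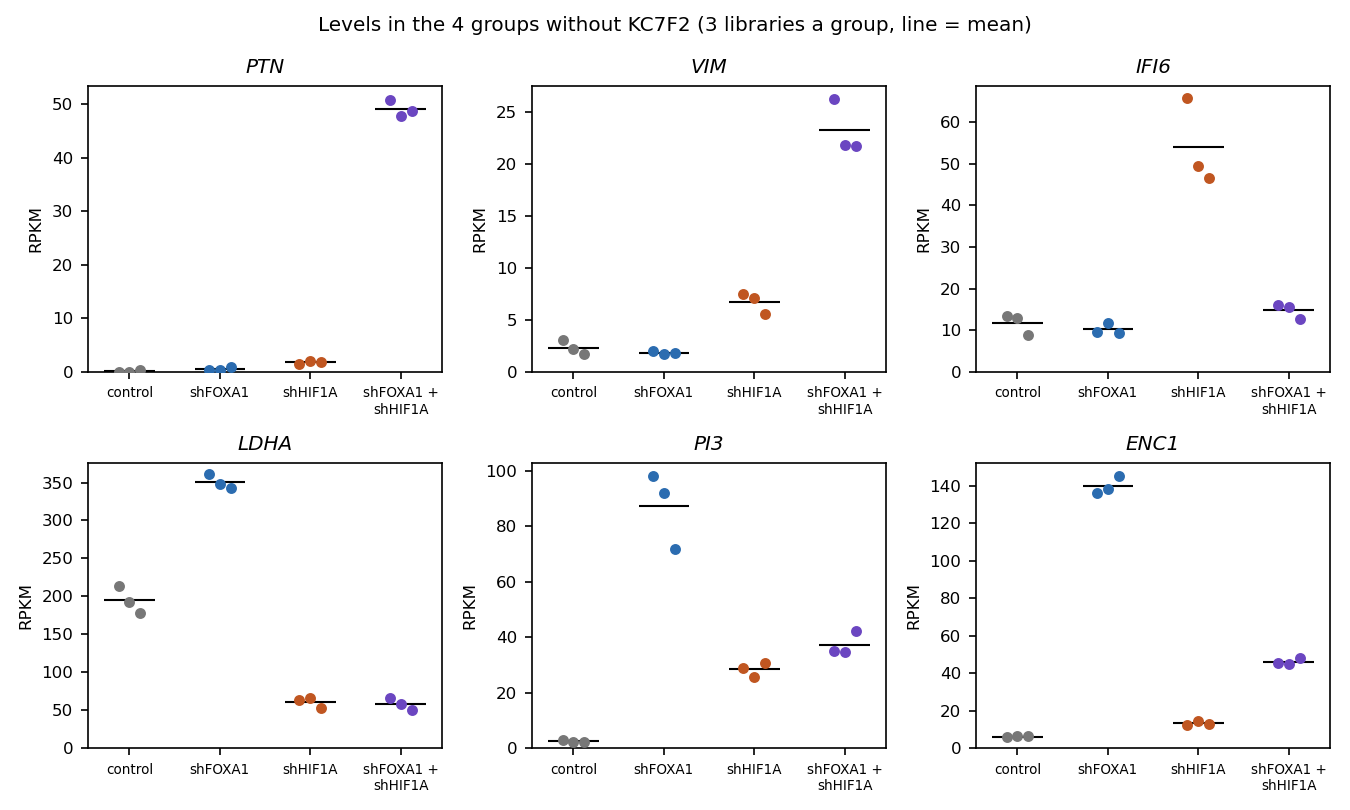
RPKM (linear axes from 0) of 6 genes in the 4 groups without KC7F2, 1 point per library and a line at the mean of 3. PTN and VIM are highest in doubly infected cells, IFI6 in shHIF1A, and LDHA, PI3 and ENC1 in shFOXA1.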

How the data were processed

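Libraries were made from total RNA of LNCaP cells with NEBNext Ultra reagents, per the labels' protocols. The authors deposited 1 table of RPKM values, and the submitters' processing notes name STAR and hg38. How reads were counted, on which annotation and with what strand setting is not given in the sources used here. Of 26475 lines, 32 held no value and were left out, and no library was dropped. Symbols of 23858 genes matched GENCODE 29, which gave positions. Depth came from genes of at most 200 nt, whose low values are whole multiples of 1 read (tolerance 2%). In these libraries 75 to 86% of low values came out whole, so no count test was run.

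Values entered limma 3.58.1 (R 4.3.3) as log2(RPKM + 0.5), 1 model over 6 groups with 12 residual degrees of freedom and an eBayes intensity trend, two-sided, with no further scaling. Contrasts were the doubly infected group against shHIF1A, shFOXA1 against control, the difference between these, and shFOXA1 against control under KC7F2, each adjusted on its own. The fit was tested on simulated data. The 35 lists hold 825 entries, with 617 distinct genes tested. The members, lists and the rule for named genes were chosen with earlier results of these data known. The rule took 7 fixed genes (FOXA1, HIF1A, MIR30A, CCL2, VEGFA, KLK3, LDHA) and the 12 largest rises and 12 largest falls past the threshold with no overlap and a group mean of 2 RPKM or more. It added up to 4 members per list by smallest adjusted p and the 8 smallest adjusted p values of the difference. Motif letters were counted in the 250 bases before RefSeq starts (GRCh38.p14), and the interferon motif was added after values were seen. Alternatives were a pseudocount of 0.1 or 1, other filters, scalings, moderation, a length and GC correction, a replicate block, only the groups compared, small RNA genes left out and each library left out. Python 3.11.15 with pandas 2.3.3, numpy 2.4.6 and matplotlib 3.10.9 made the tables and figures. Members of some lists are counted but not reported by name here.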

Additional observations from a re-analysis of the deposited data

Results flagged for a closer look

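The change after FOXA1 knockdown differed between HIF1A-depleted cells and cells with HIF1A, by the test of the difference, in 73 of the 158 named genes, against 7.61% of all genes tested. Some of these were named because of this test and others for a large change, so the share is a description. Each value is the log2 change in HIF1A-depleted cells minus the log2 change with HIF1A present, and a value below 0 means a lower change in HIF1A-depleted cells, be it a smaller rise, a larger fall or a fall in place of a rise. The FOXA1 mRNA left was 53.8% and 36% in the 2 comparisons, and the part of that gap in these values was not tested.

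The hairpin target and vector signals gave -1.74 for HIF1A and 7.13 for MIR30A. Among hypoxia and glycolysis genes and their regulators the differences were -0.78 for VEGFA, -0.93 for LDHA, -0.54 for ERO1A, -0.55 for NDRG1, -1.03 for PDK1, -0.99 for HK2, 1.10 for CITED4 and -1.63 for ENO2. Genes whose change was higher in HIF1A-depleted cells included, among the largest rises, PTN (3.79), TMEM158 (2.41), TMPRSS11E (2.24), KCNC4 (1.89) and DUOXA1 (2.04). Among the largest rises with a lower change stood KRT16 (-2.65) and MGP (-1.82). Of the largest falls, a higher value was found for TARP (1.47), SLC45A3 (1.06) and S100P (2.34). A lower value among the falls was found for FAR2P2 (-1.55), ROPN1L (-1.92), IFI6 (-1.66), CYP4F30P (-1.40) and TNFRSF19 (-1.61). Epithelial identity and keratin genes gave 1.85 for DPP4, 0.93 for PSCA, -1.96 for LAMB3, -1.86 for COL17A1, -3.32 for KRT6C and 2.23 for ACPP. Secreted defence genes and S100A9 gave -2.89 for S100A9, -2.52 for SAA1, -2.20 for SLPI, -2.24 for SAA2, -3.77 for PIP, -4.46 for PI3 and -3.95 for SERPINA3.

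Chemokines and NF-kB targets gave -1.82 for CCL2, -2.65 for CXCL10, -1.33 for CXCL2, -1.69 for CXCL8, -2.10 for NFKBIZ, -1.19 for TNFAIP2, -2.04 for SOD2 and -1.08 for MAP3K8. Interferon and antigen presentation genes gave -1.47 for IFIT1, -1.03 for IFIT2 and -0.71 for TAPBP. Proliferation, p53, amino acid and chaperone genes gave 0.69 for NUSAP1, -0.68 for PLK2, -0.42 for TNFRSF10B, 1.79 for SLC7A11, 0.55 for PSAT1, 0.99 for DNAJB4 and -2.50 for CRYAB. Matrix, mesenchymal, TGF-beta and endothelial genes gave -1.25 for TIMP2, -1.74 for MMP10, -0.93 for MMP11, 1.96 for VIM, -1.07 for TGFBR2 and -1.09 for VWF. Neuronal and steroid genes gave 1.04 for DDC, -0.74 for SRD5A1 and 1.02 for HSD17B11. Immediate early and growth factor feedback genes gave -1.19 for FOSL2, 1.38 for DUSP4, -0.83 for KLF4, 0.98 for SPRY4 and 1.37 for SPRY1. The remaining genes with the smallest adjusted p values were ENC1 (-2.65), WNT11 (-4.13) and CAPN2 (-1.73).

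For some of these genes the baseline in shHIF1A differed from control. IFIT2 was 1.8 ± 0.0274 RPKM in control and 9.19, 11.3 and 10.4 in the 3 shHIF1A libraries, MMP11 was 1.28 ± 0.14 and 5.95, 5.98 and 4.97, and VWF was 0.653 ± 0.102 and 2.1, 2.21 and 2.72. In these 3 genes shFOXA1 alone left the level near control, at 1.68 ± 0.215, 1.4 ± 0.214 and 0.68 ± 0.113.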

How the results depend on the processing

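Within HIF1A-depleted cells the number of genes called was 1201 to 1675 with each library left out (480 to 606 higher, 685 to 1142 lower). The lowest total was without shHIF1A replicate 2, and the lower count was 772 without shHIF1A replicate 1 and 685 without replicate 2. With only the 2 groups fitted 1311 genes were called, 1192 of them among the 1873. The test of the difference called 705 to 1204 genes with each library left out, of which 276 to 627 were higher (627 without control replicate 3) and 409 to 577 lower, and 250 were higher with only the 4 groups fitted. With HIF1A present the count was 2274 to 3936 with each library left out (944 to 1239 higher, 1330 to 2697 lower) and 1696 with only its 2 groups fitted (762 higher, 934 lower). Under KC7F2 it was 2811 to 4321, lowest without KC7F2 control replicate 1. The cause of these shifts was not tested, and each of these fits also rests on fewer libraries.

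Deviations of same-numbered libraries in shHIF1A and the doubly infected group correlated at 0.075, -0.008 and 0.004. This check covered these 2 groups only and does not settle whether a replicate number marks a shared batch. With the replicate number as a block the counts were 1995 (711 higher, 1284 lower), 1039 for the difference, 3342 with HIF1A present and 4452 under KC7F2. Of the 158 named genes, 126 were called within HIF1A-depleted cells, 104 of them under all 17 other settings. No call changed sign, 22 were lost and 7 gained in at least 1 setting. For the difference, 56 of 73 calls held in all 23 settings. SAA2 (adjusted p up to 0.183) and MAP3K8 (up to 0.145) were among the calls lost. The depth of 3.26 (in units of 1e6 reads) in doubly infected replicate 1 limits what low genes can show.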

Other observations

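Several other gene groups were measured in HIF1A-depleted cells, where 5.27% of all genes rose and 9.25% fell. Of 23 cholesterol synthesis genes, 5 fell and none rose (median -0.20), and 3 fell with only the 2 groups fitted. HMGCS1, which makes the precursor of mevalonate, was 29.8, 33.3 and 29.2 RPKM in shHIF1A and 19, 17.2 and 17.8 in doubly infected cells (change -0.76 ± 0.09, adjusted p = 3.36e-05). Of 26 ATF4 and amino acid supply genes, 2 rose and 7 fell (2 to 5 with each library left out), with the serine synthesis enzyme PSAT1 at -0.46 ± 0.10 (adjusted p = 0.0065). The 22 cytosolic ribosomal protein genes had no call (median -0.09), and of 34 nuclear-encoded respiratory chain genes only ATP5B was called (-0.39 ± 0.10, adjusted p = 0.0158, a call lost without shHIF1A replicate 1 or 2 or doubly infected replicate 2 or 3). With HIF1A present 5 of the ribosomal and 9 of the respiratory genes fell after shFOXA1. In that comparison 14.6% of all genes fell, against 9.25% in HIF1A-depleted cells.

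Of 26 p53 pathway genes, 4 rose and 4 fell. With each library left out 2 to 5 rose and 1 to 3 fell, and with quantile normalisation 7 rose and 2 fell. GADD45A, a DNA damage and stress gene, was 84.2, 72.4 and 67.3 in shHIF1A and 159.7, 147 and 136 in doubly infected cells (change 0.98 ± 0.20, adjusted p = 0.00323), and MDM2, the ubiquitin ligase of p53, went from 32.5, 32.7 and 39.1 to 52.5, 53.2 and 47.3 (change 0.55 ± 0.09, adjusted p = 0.000666). Every doubly infected library was the higher for both genes. TGF-beta and BMP pathway genes rose in 3 of 23 cases and fell in 4 (2 to 3 with each library left out), with the receptor gene TGFBR2 at 0.406, 0.763 and 0.598 in shHIF1A and 2.15, 1.77 and 1.94 in doubly infected cells (change 1.18 ± 0.18, adjusted p = 0.000334). Of 6 neuronal and neuroendocrine genes, SYT4, a synaptotagmin, rose from 145, 159 and 171 to 325, 319 and 279 (change 0.96 ± 0.10, adjusted p = 6.9e-06). REST, the repressor of neuronal genes, also rose (0.41 ± 0.09, adjusted p = 0.00526), and DDC, the decarboxylase of monoamine synthesis, fell (-1.45 ± 0.18, adjusted p = 3.3e-05). Of 25 endoplasmic reticulum folding genes 2 rose and 5 fell (2 to 5 fell with each library left out). Of 19 heat shock genes 2 rose, and 4 with quantile normalisation. Of 11 genes of EGFR ligands, ERBB receptors and their feedback 2 rose and 4 fell, counts that were 0 to 1 and 1 to 3 with each library left out. Among 10 genes of MHC class I presentation 2 fell, TAPBP (-0.51 ± 0.11, adjusted p = 0.00401) and CALR (-0.54 ± 0.12, adjusted p = 0.00522). Metallothionein and zinc genes gave 1 rise and 1 fall among 8, with no fall under quantile normalisation. The endothelial marker VWF fell from 2.1, 2.21 and 2.72 to 0.869, 0.926 and 0.792 (change -1.06 ± 0.17, adjusted p = 0.000502), with the 2 other endothelial markers under 1 RPKM in all 6 libraries.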
